A study of Mus musculus with 35 samples.

Results

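Interferon regulatory factors (IRFs) are transcription factors that control the type I interferon response, and interferon beta (Ifnb1) is the interferon they switch on. The 9 genes described here are Irf1, Irf2, Irf3, Irf4, Irf5, Irf7, Irf8, Irf9 and Ifnb1, chosen by name from the 47069 gene identifiers listed for every library. All 9 were found by symbol. The 7 genes other than Irf4 and Ifnb1 passed a filter of a mean of at least 1 FPKM (fragments scaled to gene length and library size) over the 35 libraries, and were tested among 11354 genes. Fold changes are on the log2 scale of FPKM + 1 with their SE, intervals are 95% intervals, and p-values are from limma with Benjamini-Hochberg adjustment. Levels of different genes are set side by side only as FPKM, which is per length.

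The cells were bone marrow-derived macrophages (BMDMs) of C57BL/6 mice, grown from marrow in medium conditioned by L929 cells, which supplies the growth factor that makes macrophages. WT BMDMs and BMDMs labelled AMPKa1-/- were treated for 24 h with DMSO as vehicle, dexamethasone (Dex, a synthetic glucocorticoid, 100 nM), lipopolysaccharide (LPS, a bacterial ligand of TLR4, 100 ng/ml), LPS + Dex, damage-associated molecular patterns (DAMPs, 1 µg/ml) or DAMPs + Dex. Each of the 12 groups had 3 libraries, except WT LPS with 2 (replicates 2 and 3, with replicate 1 not analysed here), which gave 17 WT libraries and 18 labelled AMPKa1-/-. The sources used here do not state how the AMPKa1-/- allele was made or what the DAMPs contained.

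Libraries held 15837203 to 31955298 fragments, with a median of 19973568. In GENCODE M21 on GRCm38, Irf1 (ENSMUSG00000018899) spans chr11:53770014-53778374, Irf2 (ENSMUSG00000031627) chr8:46739732-46847458 and Irf3 (ENSMUSG00000003184) chr7:44997648-45002848. Irf4 (ENSMUSG00000021356) spans chr13:30749226-30766976, Irf5 (ENSMUSG00000029771) chr6:29526625-29541871 and Irf8 (ENSMUSG00000041515) chr8:120736358-120756694, and these 6 genes are on the plus strand. Irf9 (ENSMUSG00000002325) spans chr14:55603571-55610030 on the plus strand, Irf7 (ENSMUSG00000025498) chr7:141262706-141266481 on the minus strand and Ifnb1 (ENSMUSG00000048806) chr4:88522025-88522774 on the minus strand. Exons of Tnpo3, which is on the minus strand, cover 14.1% of the exon bases of Irf5. Some Irf5 fragments may thus belong to Tnpo3 if reads were counted without regard to strand. Other genes cover at most 3.4% of Irf1, Irf3, Irf7 and Irf9.

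Background on the family helps to read the values. A sensor such as TLR4 activates IRF3, which is present before any stimulus and turns on Ifnb1. Secreted interferon beta then acts through its receptor on a complex that binds DNA through IRF9, which raises the interferon-stimulated genes, and Irf7, itself one of these genes, amplifies the loop. IRF1 and IRF2 bind like sites as an activator and, mostly, an antagonist, while IRF5, IRF8 and IRF4 are linked to inflammatory cytokines and to myeloid and lymphoid identity.

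The labels were first checked on genes with a known behaviour. Prkaa1, which encodes AMPKa1, was not reduced: vehicle libraries held 15.9, 11.8 and 15.3 FPKM in WT and 14.8, 16.5 and 15.4 FPKM in those labelled AMPKa1-/-. The files therefore do not show the deletion at the level of the whole gene, and neither a shortened transcript that is still counted nor cells that differ from their label can be told from this gene. Every comparison of the genotypes below is therefore a comparison of labels. The Dex labels did show, since Tsc22d3, a glucocorticoid target that encodes GILZ, was at least 129.2 FPKM in every library with Dex and at most 73.9 FPKM in every library without it. All 8 macrophage markers were present, led by Lyz2 with a mean of 24097.1 FPKM. Of 8 neutrophil markers, Mmp8, Camp, Ngp and Ltf had means of 26.2, 22.2, 1.71 and 1.1 FPKM, and Ly6g 0.0126 FPKM. Of 5 T cell markers, Cd4 had a mean of 9.62 FPKM and Cd3e 0.013 FPKM.

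Promoters of 4 of the 9 genes are shown because a search of all 9 found these letters there. They were read from RefSeq windows of GRCm38.p6 that run from 250 bases before to 50 after a gene's start, which existed for all 9 genes. Capitals mark a match to the interferon-stimulated response element (ISRE, GAAA and GAAA with any 2 bases between them) or to TTCNNNGAA (the interferon gamma-activated site, GAS) in the Irf genes, and to AANNGAAA (the IRF core, which overlaps the ISRE) in Ifnb1, all searched on both strands.
Irf1, chr11:53769904-53769952, plus strand: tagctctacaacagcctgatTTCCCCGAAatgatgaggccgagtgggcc
Irf2, chr8:46739495-46739549, plus strand: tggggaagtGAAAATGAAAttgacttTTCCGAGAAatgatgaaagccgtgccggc
Irf8, chr8:120736167-120736233, plus strand: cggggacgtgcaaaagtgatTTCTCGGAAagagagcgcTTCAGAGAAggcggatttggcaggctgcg
Ifnb1, chr4:88522893-88522973, minus strand: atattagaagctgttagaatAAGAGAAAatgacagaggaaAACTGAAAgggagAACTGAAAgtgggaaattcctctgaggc

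The GAS of Irf1 began 90 bases before its start, and that of Irf2 224 bases before, next to an ISRE that began 241 bases before. Irf8 held 2 GAS matches, 171 and 153 bases before its start, and Ifnb1 held 3 IRF cores between 159 and 119 bases before its start. Irf2 also held IRF cores, which began 245 and 239 bases before its start, overlap its ISRE and are not marked. Of all 32851 mouse promoter windows, 3.44% held the ISRE, 8.3% held the GAS and 23.9% held the IRF core. The glucocorticoid receptor palindrome (GNACA and TGTNC with any 3 bases between them) was found in none of the 9 genes and in 0.475% of all windows. The windows of Irf3, Irf4, Irf5, Irf7 and Irf9 held none of the 4 motifs, which says only that these letters are not in these windows. A site for NF-kB (kappaB) was also searched and matched in Irf1, Irf2 and 5.8% of all windows. Its matches depend on the form of the letters searched and are not marked. These matches are letters in a window and not measured binding.

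Irf7 and Irf9, the amplifying factor and the DNA-binding subunit of the complex below the interferon receptor, rose with LPS and with DAMPs and fell back when Dex was present. Irf7 rose with LPS by 4.50 ± 0.52, which is 22.6-fold, in WT and by 5.02 ± 0.47, which is 32.3-fold, in the libraries labelled AMPKa1-/-. Dex on top of LPS took it back to the level of vehicle in both.

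**Figure D1:**
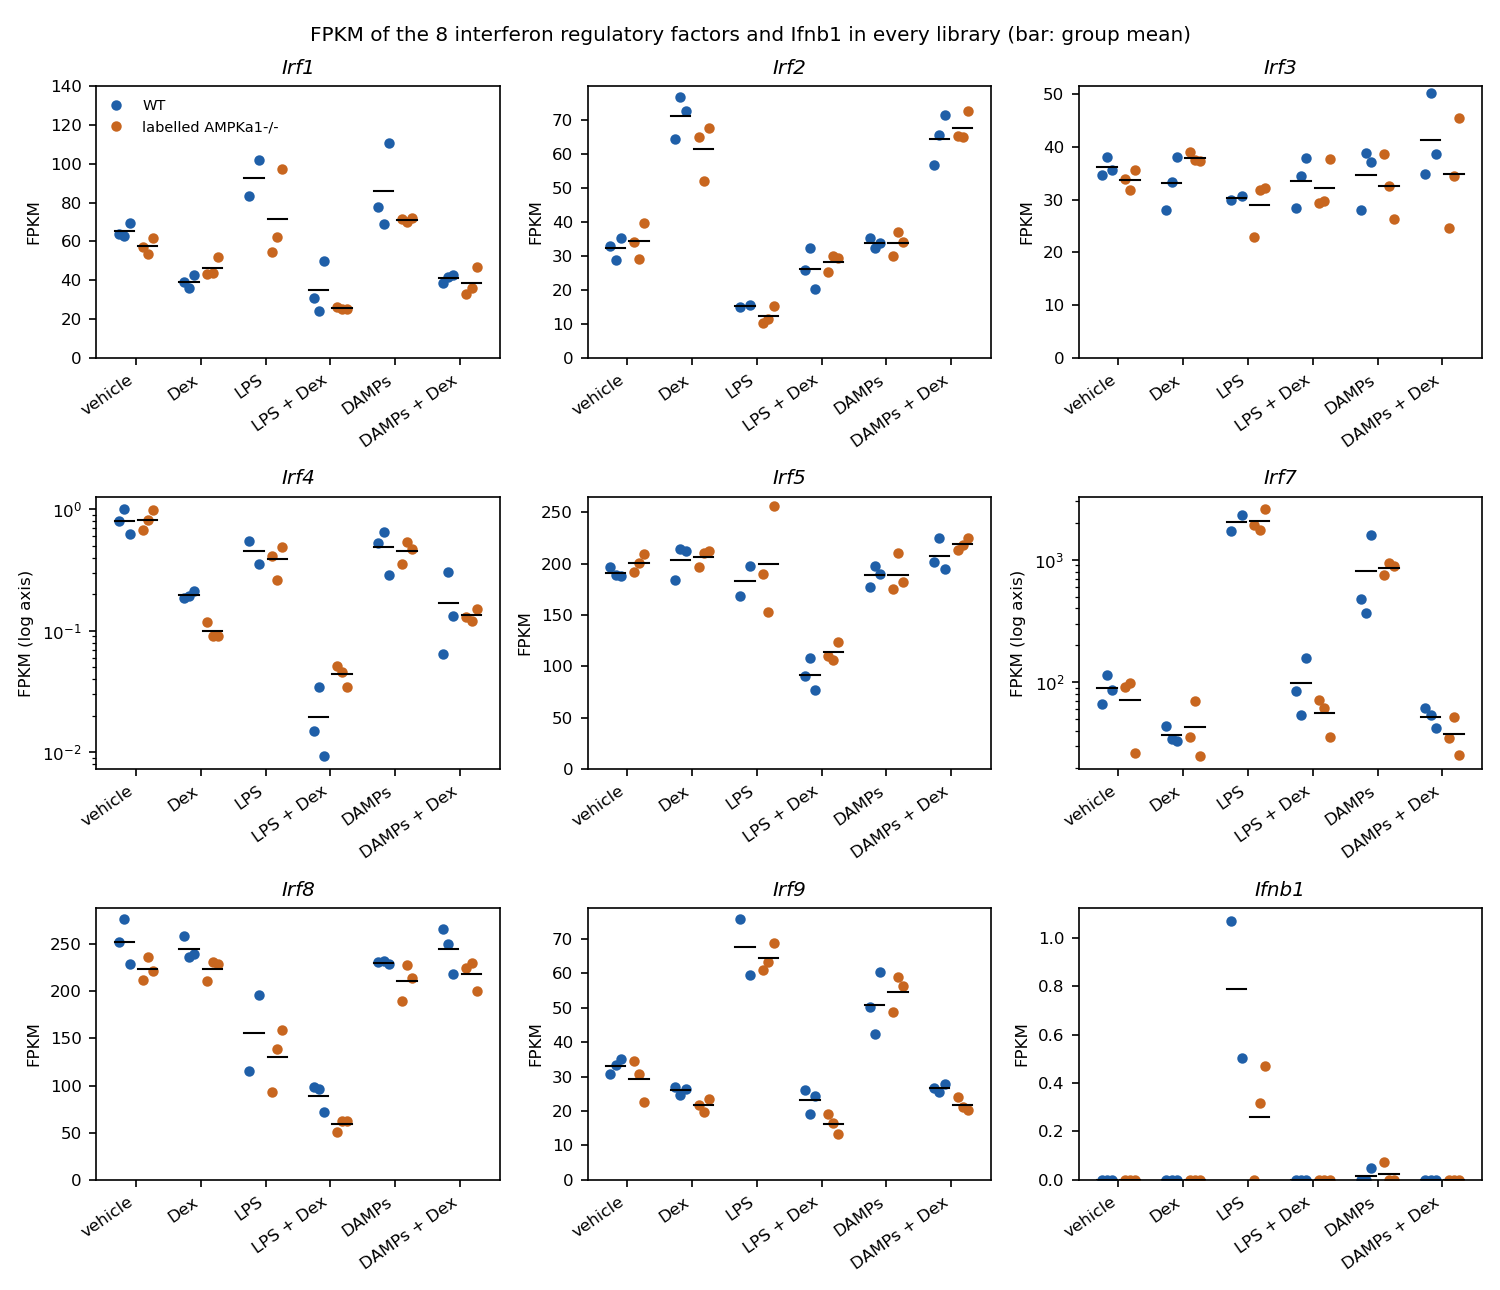
FPKM of each gene (y axis, a log axis for Irf4 and Irf7) in each of the 35 libraries by treatment (x axis), with WT in blue, libraries labelled AMPKa1-/- in orange and the group mean as a black bar. Irf7 lies at or above 1715.4 FPKM in all 5 LPS libraries and at or below 156.7 FPKM in all vehicle, Dex, LPS + Dex and DAMPs + Dex libraries, while Irf2 is highest in the Dex and DAMPs + Dex libraries.

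In WT, Irf7 was 66.7, 115.4 and 87.1 FPKM with vehicle, 1715.4 and 2333.7 FPKM with LPS, and 85.5, 54.3 and 156.7 FPKM with LPS + Dex. In the libraries labelled AMPKa1-/-, it was 91.5, 98.6 and 26.7 FPKM with vehicle, 1929.6, 1732.1 and 2576.2 FPKM with LPS, and 71.9, 62.2 and 35.5 FPKM with LPS + Dex. The LPS libraries lay far above those of vehicle and LPS + Dex, and the LPS + Dex libraries overlapped vehicle in both genotypes. The fall from LPS to LPS + Dex was -4.46 ± 0.52 in WT (adjusted p = 9.3e-08, limma) and -5.21 ± 0.47 in the libraries labelled AMPKa1-/- (adjusted p = 4.8e-10). LPS + Dex differed from vehicle by 0.04 ± 0.47 in WT, with an interval of -0.92 to 1.00.

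DAMPs raised Irf7 to 477.5, 367.9 and 1585.6 FPKM in WT and to 751.6, 933.3 and 891.1 FPKM in the libraries labelled AMPKa1-/-. With DAMPs + Dex, Irf7 was 61.9, 53.6 and 42.1 FPKM in WT and 35.2, 51.8 and 25.7 FPKM in the others. WT DAMPs replicate 3 stood above the other WT DAMPs libraries, and without it the rise over vehicle was 2.25 (adjusted p = 0.029) rather than 2.89 ± 0.47 (adjusted p = 0.0015). The Dex libraries without a stimulus were 44.2, 34.5 and 33.0 FPKM in WT, all below vehicle. That fall of -1.22 ± 0.47 only just passed (adjusted p = 0.048) and did not pass when any 1 WT Dex library was left out. It was also lost without WT vehicle replicate 2 (-1.03, adjusted p = 0.18) or 3, and with no filter on low genes (adjusted p = 0.10), among other settings. The same comparison in the libraries labelled AMPKa1-/- was -0.64 ± 0.47 (adjusted p = 0.33), where vehicle replicate 3, at 26.7 FPKM, lay among the Dex libraries.

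Irf9 moved in the same directions with smaller steps. In WT it was 30.8, 33.2 and 35.2 FPKM with vehicle, 75.8 and 59.6 FPKM with LPS, and 26.2, 19.1 and 24.4 FPKM with LPS + Dex. The libraries labelled AMPKa1-/- had 34.6, 30.8 and 22.7 FPKM with vehicle, 61.0, 63.3 and 68.8 FPKM with LPS, and 19.1, 16.5 and 13.4 FPKM with LPS + Dex. LPS lay above vehicle and LPS + Dex below vehicle, without overlap, in both genotypes. The rise with LPS was 1.00 ± 0.16 in WT (adjusted p = 6.0e-06) and 1.13 ± 0.14 in the libraries labelled AMPKa1-/- (adjusted p = 1.3e-07). LPS + Dex was lower than LPS by 2.84-fold and 3.8-fold, and lower than vehicle by 1.41-fold (adjusted p = 0.0047) and 1.74-fold (adjusted p = 3.1e-05), of which the WT call against vehicle was lost when the libraries were centred on 1 median (-0.28, adjusted p = 0.12).

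DAMPs raised Irf9 to 50.2, 42.2 and 60.3 FPKM in WT and to 48.7, 58.9 and 56.2 FPKM in the libraries labelled AMPKa1-/-. The rise was 0.59 ± 0.14 (adjusted p = 0.027) and 0.89 ± 0.14 (adjusted p = 3.9e-04), and the WT call was lost without WT DAMPs replicate 3 (0.47, adjusted p = 0.32), among other libraries. DAMPs + Dex brought it to 26.6, 25.5 and 27.7 FPKM and to 24.0, 21.2 and 20.4 FPKM, below every DAMPs library. Over the 12 group means, Irf9 and Irf7 followed each other with r = 0.94, as a description of groups that share the same 6 treatments.

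Irf2, the antagonist of the family, went the other way. It fell with LPS, rose with Dex, and was called in 8 of the 12 comparisons within a genotype, higher in 6 and lower in 2. In WT it was 32.9, 28.7 and 35.1 FPKM with vehicle, 64.4, 76.6 and 72.5 FPKM with Dex, and 14.9 and 15.5 FPKM with LPS. The other genotype had 34.2, 29.2 and 39.7 FPKM with vehicle, 64.9, 51.9 and 67.5 FPKM with Dex, and 10.2, 11.3 and 15.3 FPKM with LPS. None of these 3 treatments overlapped another in either genotype.

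Dex alone raised Irf2 by 2.18-fold in WT (1.12 ± 0.15, adjusted p = 1.3e-06) and by 1.77-fold in the libraries labelled AMPKa1-/- (0.82 ± 0.15, adjusted p = 9.8e-05). LPS lowered it by 2.04-fold (adjusted p = 5.5e-06) and 2.67-fold (adjusted p = 2.8e-09). With LPS + Dex it was 25.9, 32.3 and 20.2 FPKM and 25.2, 29.8 and 29.4 FPKM, above every LPS library and overlapping vehicle. That rise over LPS was 0.72 ± 0.17 (adjusted p = 0.0010) and 1.15 ± 0.15 (adjusted p = 3.3e-07).

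DAMPs left Irf2 among the vehicle values, at 35.1, 32.4 and 33.8 FPKM in WT and 30.0, 37.1 and 34.2 FPKM in the libraries labelled AMPKa1-/-. The differences from vehicle were 0.07 (interval -0.23 to 0.37) and -0.02 (interval -0.32 to 0.29). DAMPs + Dex took it to 56.6, 65.4 and 71.4 FPKM and to 65.3, 64.9 and 72.6 FPKM, above every DAMPs library. The genes most like Irf2 over the 12 group means were Trp53inp1 (r = 0.9923), Il6ra (r = 0.992) and Smim13 (r = 0.9907). For Irf7 they were Oas3, Xaf1 and B2m (r = 0.9921, 0.9887 and 0.9849) and for Irf9 Epsti1, Oas2 and Oasl2 (r = 0.9856, 0.9835 and 0.9827), given as descriptions over the same 12 means.

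Irf1, the activator that competes with IRF2, fell wherever Dex was added to LPS or DAMPs, in both genotypes. In WT it was 63.7, 62.5 and 69.3 FPKM with vehicle, 83.2 and 102.0 FPKM with LPS, and 31.0, 24.3 and 50.0 FPKM with LPS + Dex. Irf1 in the libraries labelled AMPKa1-/- was 57.2, 53.3 and 61.8 FPKM with vehicle, 54.5, 62.3 and 97.0 FPKM with LPS, and 26.3, 25.4 and 25.4 FPKM with LPS + Dex. LPS lay above vehicle in WT and overlapped it in the other genotype, while LPS + Dex lay below vehicle and LPS in both.

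The differences of Irf1 between LPS and vehicle were 0.49 ± 0.22 (adjusted p = 0.056) and 0.26 ± 0.20 (adjusted p = 0.24) and did not pass, though both passed with the libraries centred on 1 median (0.64 and 0.54). LPS + Dex was lower than LPS by 2.69-fold in WT (adjusted p = 6.4e-06) and by 2.63-fold in the libraries labelled AMPKa1-/- (adjusted p = 1.3e-06). DAMPs + Dex was lower than DAMPs by 2.02-fold (adjusted p = 2.2e-04) and 1.85-fold (adjusted p = 9.6e-04). Dex alone gave 38.9, 36.2 and 42.8 FPKM in WT, a fall of -0.72 ± 0.20 (adjusted p = 0.0062), and 43.4, 43.9 and 51.7 FPKM in the libraries labelled AMPKa1-/-, a difference of -0.31 ± 0.20 (adjusted p = 0.26). The genes most like Irf1 were Rnf180, Sdc3 and Cd83 (r = 0.9667, 0.9563 and 0.9516).

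**Figure D2:**
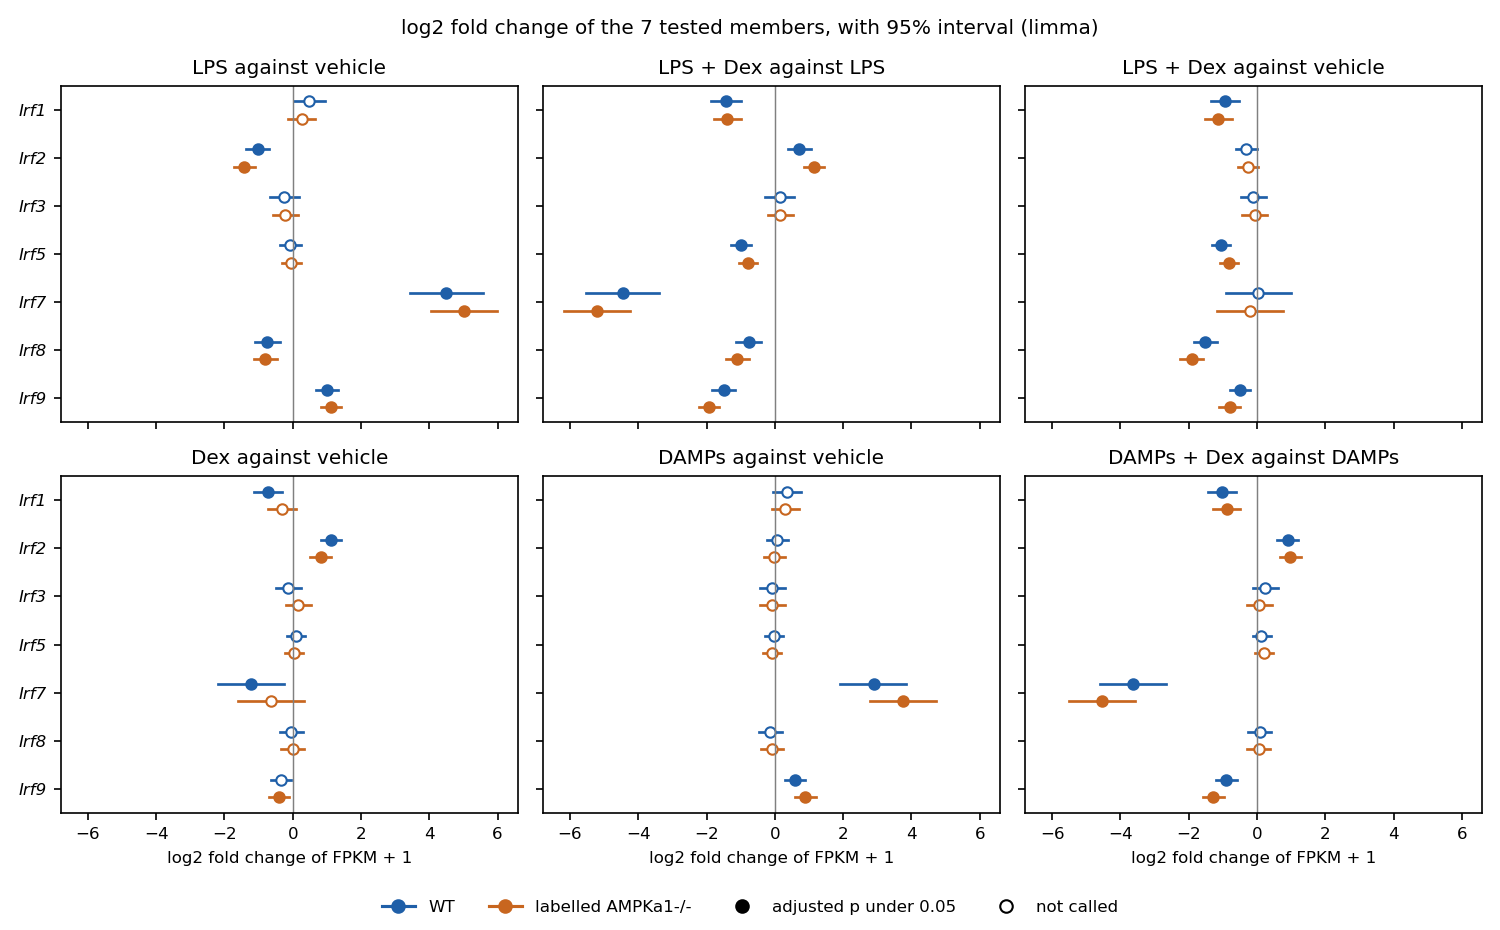
log2 fold change of FPKM + 1 (x axis) of the 7 tested genes (y axis) in 6 comparisons, with the 95% interval as a line, WT in blue and libraries labelled AMPKa1-/- in orange. Filled points passed an adjusted p of 0.05, and Irf7 and Irf2 lie on opposite sides of 0 with LPS (4.50 and -1.03 in WT) and with LPS + Dex against LPS (-4.46 and 0.72).

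Irf3, the factor that TBK1 activates by phosphorylation, was not called at the RNA level. Its 35 libraries ran from 23.0 to 50.2 FPKM with a median of 34.5 FPKM, and it was called in 0 of the 12 comparisons within a genotype by limma, with 0 in each of the 12 intervals. Its means in WT were 36.1 ± 1.81 FPKM with vehicle (SD, n = 3), 30.3 ± 0.63 FPKM with LPS (n = 2) and 33.6 ± 4.81 FPKM with LPS + Dex (n = 3). The LPS difference in WT was -0.25, with an interval of -0.66 to 0.17. RNA levels do not report on phosphorylation. The genes most like Irf3 were Mrpl24, Rpl36 and Ppp1r35 (r = 0.9451, 0.9315 and 0.9282).

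Ifnb1, the target of IRF3, was barely detected at 24 h. It was above 0 in 6 of the 35 libraries and rested on 39 fragments in all. WT LPS held 17 and 9 fragments (1.07 and 0.504 FPKM), and LPS labelled AMPKa1-/- held 0, 4 and 7 fragments. WT DAMPs replicate 3 and DAMPs replicate 1 labelled AMPKa1-/- held 1 fragment each, and every vehicle, Dex, LPS + Dex and DAMPs + Dex library held 0. WT LPS lay above LPS labelled AMPKa1-/-.

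Ifnb1 was tested only without the filter on low values, in a test added after the values were seen and in which vehicle and LPS + Dex have no spread of their own. LPS differed from vehicle by 0.82 ± 0.10 in WT (adjusted p = 1.9e-07) and by 0.32 ± 0.09 in the libraries labelled AMPKa1-/- (adjusted p = 0.0054), as differences of log2(FPKM + 1) and not as folds. LPS + Dex differed from LPS by the same sizes downward (adjusted p = 4.1e-07 and 0.0097). The calls in the libraries labelled AMPKa1-/- were lost without LPS replicate 3 of that genotype (0.20, adjusted p = 0.079, and -0.20, adjusted p = 0.13), and the fall also without its replicate 2 (-0.28, adjusted p = 0.051). The LPS response differed between the genotypes by -0.50 ± 0.13, which did not pass (adjusted p = 0.12). It passed without LPS replicate 3 labelled AMPKa1-/- (-0.62, adjusted p = 0.0058). The difference was -0.73 without WT LPS replicate 3 and -0.27 without WT LPS replicate 2, fits that each leave a single WT LPS library.

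**Figure D3:**
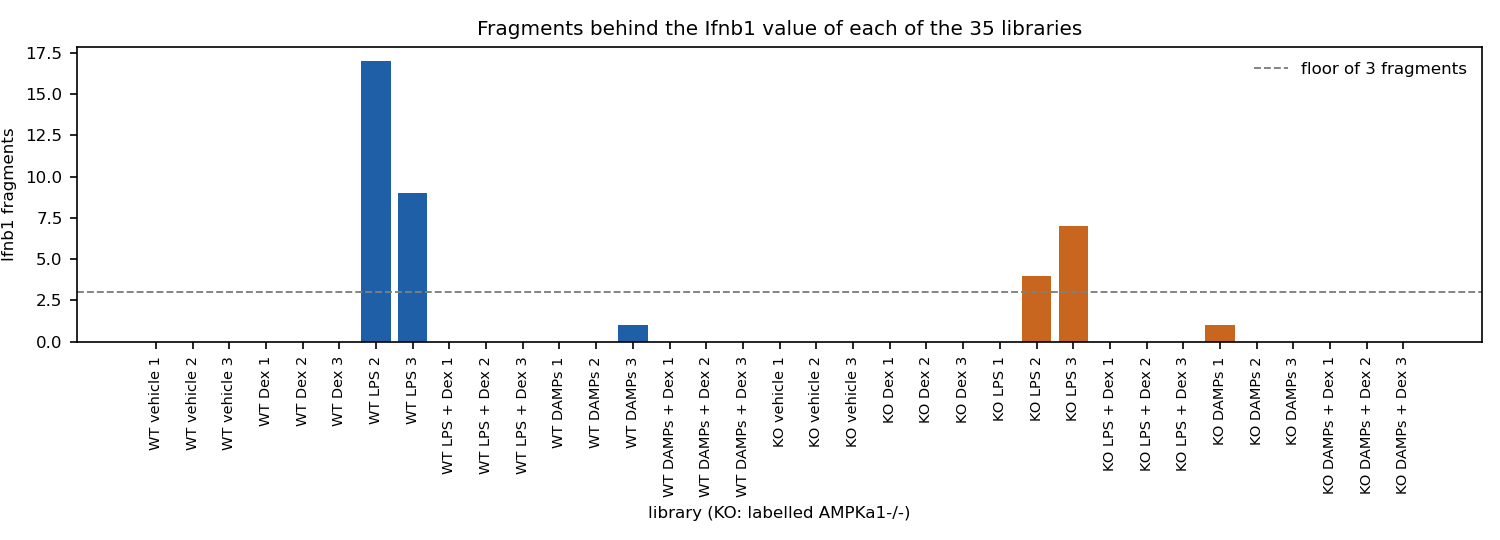
Number of fragments behind the Ifnb1 value (y axis) in each of the 35 libraries (x axis), with WT in blue and libraries labelled AMPKa1-/- (KO) in orange, and a dashed line at the floor of 3 fragments. The 4 libraries above the line are all LPS libraries, with 17, 9, 4 and 7 fragments.

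At the 3 fragments that a count of 0 allows, the 29 libraries at 0 could hold up to 0.125 to 0.253 FPKM, for counting error only. Other interferon genes also stayed low. Ifna4 was above 0 in 1 library (WT LPS replicate 2, 0.168 FPKM), and Ifng in 11 libraries, among them all 5 LPS libraries, with a highest value of 1.32 FPKM in WT LPS replicate 3. Ifna1, Ifna2, Ifna5, Ifnab, Ifne, Ifnl2 and Ifnl3 were listed at 0 throughout, and Ifnk was above 0 in 13 libraries with at most 0.234 FPKM. None of these other interferon genes reached a mean of 1 FPKM or was tested.

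Irf5 and Irf8, 2 factors at high level in macrophages, were lowest when LPS and Dex were combined. Irf5 was 196.5, 188.8 and 188.3 FPKM in WT vehicle, 168.0 and 197.4 FPKM in WT LPS, 184.0, 214.6 and 212.3 FPKM in WT Dex, and 90.5, 108.2 and 76.7 FPKM in WT LPS + Dex. In the libraries labelled AMPKa1-/- it was 191.6, 200.7 and 209.5 FPKM with vehicle, 190.1, 152.4 and 256.0 FPKM with LPS, 196.8, 210.0 and 211.9 FPKM with Dex, and 110.4, 106.5 and 123.6 FPKM with LPS + Dex. Only the LPS + Dex libraries stood apart in these 4 treatments. Against LPS the fall was 1.99-fold in WT (-0.99 ± 0.14, adjusted p = 3.1e-06) and 1.72-fold in the libraries labelled AMPKa1-/- (-0.78 ± 0.13, adjusted p = 1.8e-05), and Dex alone differed from vehicle by 0.09 (interval -0.18 to 0.35) and 0.04 (interval -0.23 to 0.31).

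Irf8, a lineage factor of monocytes, was 251.8, 276.9 and 229.2 FPKM in WT vehicle, 115.4 and 195.8 FPKM in WT LPS, and 98.3, 96.1 and 71.8 FPKM in WT LPS + Dex. Irf8 in the libraries labelled AMPKa1-/- was 212.1, 235.9 and 221.0 FPKM with vehicle, 93.2, 139.1 and 158.5 FPKM with LPS, and 51.2, 62.8 and 62.8 FPKM with LPS + Dex. The 3 treatments formed separate steps in both genotypes. LPS + Dex was below vehicle by 2.84-fold (-1.51 ± 0.16, adjusted p = 7.5e-09) and 3.75-fold (-1.91 ± 0.16, adjusted p = 7.3e-11). In WT, the fall from vehicle to LPS was -0.74 ± 0.18, and -0.36 without WT LPS replicate 2. The fall from LPS to LPS + Dex was -0.77 ± 0.18, and -0.39 without WT LPS replicate 3. The sizes of both falls thus depend on single WT LPS libraries, and the latter fits leave only 1 such library. Dex alone, at 258.4, 236.3 and 239.0 FPKM in WT, differed from vehicle by -0.04, with an interval of -0.37 to 0.29.

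Whether Dex acted differently with and without LPS was asked by the difference between LPS + Dex against LPS and Dex against vehicle, a comparison added after the values were seen. Of the 7 genes, 4 passed in WT, all negative, where 32% of all genes passed, and 5 in the libraries labelled AMPKa1-/-, all negative, where 28.4% of all genes passed. For Irf5 the difference was -1.08 ± 0.19 (adjusted p = 1.0e-04) and -0.82 ± 0.18 (adjusted p = 0.0011). For Irf8 it was -0.72 ± 0.24 (adjusted p = 0.023) and -1.11 ± 0.23 (adjusted p = 4.5e-04). The WT call for Irf8 was lost with the libraries centred on 1 median (-0.56, adjusted p = 0.087). It was also lost without WT vehicle replicate 3 (-0.66, adjusted p = 0.053) or WT LPS + Dex replicate 3 (-0.58, adjusted p = 0.077). Without WT LPS replicate 3, which leaves 1 WT LPS library, the difference was -0.35. For Irf1 it was -0.71 ± 0.29 in WT (adjusted p = 0.064), which passed without WT LPS + Dex replicate 3 (-0.99, adjusted p = 0.0052) among others, and -1.09 ± 0.28 in the libraries labelled AMPKa1-/- (adjusted p = 0.0034). For Irf7 it was -3.24 ± 0.70 and -4.57 ± 0.66, for Irf9 -1.17 ± 0.22 and -1.52 ± 0.20, and for Irf2 -0.40 ± 0.22 and 0.32 ± 0.21, which did not pass in either genotype.

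FPKM are scaled to library size, so a gene that takes many fragments lowers the values of others. The acute-phase gene Saa3 alone held 16.0% to 24.0% of the FPKM sum in the LPS + Dex libraries and at most 7.58% in the LPS libraries. As FPKM is per length, these are not shares of fragments. The median of all 11354 genes for LPS + Dex against vehicle was -0.23 in WT and -0.28 in the libraries labelled AMPKa1-/-. For LPS + Dex against vehicle, the main fit gave -1.06 for Irf5 and -1.51 for Irf8 in WT, and -0.82 and -1.91 in the other genotype. With the libraries centred on 1 median, these values were -0.84 and -1.28 in WT, and -0.53 and -1.62 in the other genotype. The part of library composition in these falls was not tested. In bulk RNA, fewer cells that express a gene and less RNA in each cell cannot be told apart. DAMPs left both genes near vehicle, with differences of -0.02 (interval -0.29 to 0.24) for Irf5 and -0.13 (interval -0.46 to 0.20) for Irf8 in WT, and of -0.09 (interval -0.35 to 0.18) and -0.08 (interval -0.42 to 0.25) in the libraries labelled AMPKa1-/-. The genes most like Irf5 were Mob3b, Slc38a7 and Cmtm6 (r = 0.9786, 0.9587 and 0.9447), and those most like Irf8 were Slc22a5, E130311K13Rik and AU040320 (r = 0.981, 0.9767 and 0.9725).

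Irf4, which acts in alternatively activated macrophages, dendritic cells and lymphocytes, stayed at or below 0.997 FPKM and was not tested with the other genes. It was 0.796, 0.997 and 0.627 FPKM in WT vehicle, 0.186, 0.195 and 0.213 FPKM in WT Dex, 0.549 and 0.356 FPKM in WT LPS, and 0.0151, 0.0346 and 0.00925 FPKM in WT LPS + Dex. The libraries labelled AMPKa1-/- had 0.678, 0.811 and 0.977 FPKM with vehicle, 0.118, 0.09 and 0.0899 FPKM with Dex, 0.415, 0.264 and 0.491 FPKM with LPS, and 0.0513, 0.0462 and 0.0345 FPKM with LPS + Dex. The 4 treatments did not overlap within a genotype, and LPS + Dex was the lowest. The LPS + Dex values rest on about 2, 3 and 1 fragments in WT and 6, 4 and 3 in the libraries labelled AMPKa1-/-, against 9 to 11 with Dex in the latter, and counting error is large at such numbers. With no filter on low values, Irf4 was called lower in 11 of 12 comparisons within a genotype, for example by -0.82 ± 0.09 for LPS + Dex against vehicle in WT (adjusted p = 2.3e-08), a value that the added 1 FPKM makes small. The exception was DAMPs against vehicle in WT (-0.28 ± 0.09, adjusted p = 0.16). The same comparison in the other genotype only just passed (-0.33 ± 0.09, adjusted p = 0.045) and was lost without DAMPs replicate 1 (-0.27, adjusted p = 0.22) among others. LPS against vehicle in WT was lost without WT vehicle replicate 2 (-0.24, adjusted p = 0.081), and was -0.22 without WT LPS replicate 3. With a pseudocount of 0.1 both were lost (-0.74, adjusted p = 0.37, and -0.72, adjusted p = 0.11). DAMPs + Dex against DAMPs in WT was lost without WT DAMPs replicate 2 (-0.27, adjusted p = 0.062) or WT DAMPs + Dex replicate 1 (-0.28, adjusted p = 0.052).

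Counted together, 4 of the 7 tested genes were called for LPS against vehicle in WT (Irf7 and Irf9 higher, Irf2 and Irf8 lower), where 55.7% of all genes were called, and the same 4 in the libraries labelled AMPKa1-/-, where 64.3% were. For LPS + Dex against LPS, 6 of 7 were called in WT (background 34.1%) and 6 of 7 in the libraries labelled AMPKa1-/- (background 37.7%), in each case Irf2 higher and Irf1, Irf5, Irf7, Irf8 and Irf9 lower. For LPS + Dex against vehicle, Irf1, Irf5, Irf8 and Irf9 were lower in both genotypes, 4 of 7 against 54.2% and 57.4% of all genes. For Dex against vehicle, 3 of 7 were called in WT (Irf2, Irf1 and Irf7), against a background of 30.9%, and Irf7 only just passed. In the libraries labelled AMPKa1-/-, 2 of 7 were called (Irf2 and Irf9), against a background of 27.9%. That call of Irf9 (-0.40 ± 0.14, adjusted p = 0.037) was lost without vehicle replicate 1 (-0.28, adjusted p = 0.21) or 2, or Dex replicate 1 or 2, of the same genotype, and with libraries centred on one median (-0.32, adjusted p = 0.098). In WT, Irf9 with Dex was 27.1, 24.5 and 26.5 FPKM, all below the 30.8, 33.2 and 35.2 FPKM of vehicle, but was not called (-0.33 ± 0.14, adjusted p = 0.081), and with that centring it passed (-0.42, adjusted p = 0.027). These comparisons share their vehicle or LPS libraries, so the counts are not independent of each other.

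Few genes were called with DAMPs. Irf7 and Irf9, 2 of 7, were called in WT, where 2.01% of all genes were called, and the same 2 in the libraries labelled AMPKa1-/-, where 4.13% were. The WT background of 228 genes was 26 without WT DAMPs replicate 3, 81 without WT vehicle replicate 3, 114 without WT vehicle replicate 1 and 372 without WT DAMPs replicate 2. The 469 genes of the other genotype were 267 or 272 without vehicle replicate 2 or 3, and 311 or 269 without DAMPs replicate 1 or 3. For DAMPs + Dex against DAMPs, Irf2 was higher and Irf1, Irf7 and Irf9 lower in both genotypes, 4 of 7 against 24.3% and 25.3% of all genes. Irf3, Irf5 and Irf8 were called in none of these 4 comparisons by limma, and 0 was in each of their intervals.

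The rest of the pathway was followed in 6 lists of named genes, which were chosen with earlier results of these data known. As background for their counts, LPS raised 19.9% and lowered 35.8% of all genes in WT, and raised 20.2% and lowered 44.1% in the libraries labelled AMPKa1-/-. From LPS to LPS + Dex, 17.5% and 18.4% of all genes fell. The 20 interferon-stimulated targets, which the complex that holds IRF9 and also IRF7 switch on, all rose with LPS in both genotypes, with a median of 4.12 in WT and 4.35 in the other genotype, where the medians of all genes were -0.19 and -0.30. All 20 fell from LPS to LPS + Dex, with medians of -5.23 and -5.57. Cxcl10, a chemokine for T cells, went from 1.3 ± 0.279 FPKM in WT vehicle (SD, n = 3) to 1060 ± 346 FPKM with LPS (n = 2) and 1.1 ± 1.14 FPKM with LPS + Dex (n = 3). Isg15, a ubiquitin-like modifier, went from 14.3 ± 4.6 to 1820 ± 341 and 52.1 ± 22.9 FPKM in the same groups, and Ifit3, which binds foreign RNA with its partners, from 11.5 ± 3.46 to 183 ± 3.29 and 1.67 ± 0.427 FPKM.

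With DAMPs, 16 of the 20 targets were higher in WT (median 1.74) and 18 in the libraries labelled AMPKa1-/- (median 2.13), against 1.22% and 1.89% of all genes, and none was lower. Rtp4, a chaperone for receptors at the membrane, was higher by 2.28 ± 0.46 in WT (adjusted p = 0.0075) and 3.01 ± 0.46 in the libraries labelled AMPKa1-/- (adjusted p = 2.7e-04). The WT count varied with single libraries. Without WT DAMPs replicate 3 it was 2 of 20, with a median of 1.11, and without WT vehicle replicate 1 it was 7 of 20. In the libraries labelled AMPKa1-/- the count stayed between 14 and 18 whichever DAMPs or vehicle library was left out. DAMPs + Dex lowered all 20 against DAMPs in both genotypes, with medians of -2.60 and -2.95, against 12.6% and 12.2% of all genes.

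Dex alone lowered 16 of the 20 targets in WT (median -1.15) and 10 in the libraries labelled AMPKa1-/- (median -0.92), against 14.9% and 16% of all genes. The WT count was 7 without WT vehicle replicate 3, 10 without WT Dex replicate 1 and 8 without WT Dex replicate 2. The count of 10 was 2 without vehicle replicate 1 of that genotype (median -0.65), 3 without vehicle replicate 2, 6 without Dex replicate 2 and 5 without Dex replicate 3. Ifit3 fell by -2.68 ± 0.45 in WT (adjusted p = 4.8e-05) and by -1.85 ± 0.45 in the libraries labelled AMPKa1-/- (adjusted p = 0.0027). Usp18, which is both a target and a brake on the interferon receptor, fell by -0.92 ± 0.35 in WT (adjusted p = 0.043), a call that was lost without any 1 WT vehicle library and without WT Dex replicate 2 (-0.84, adjusted p = 0.13) or 3.

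**Figure D4:**
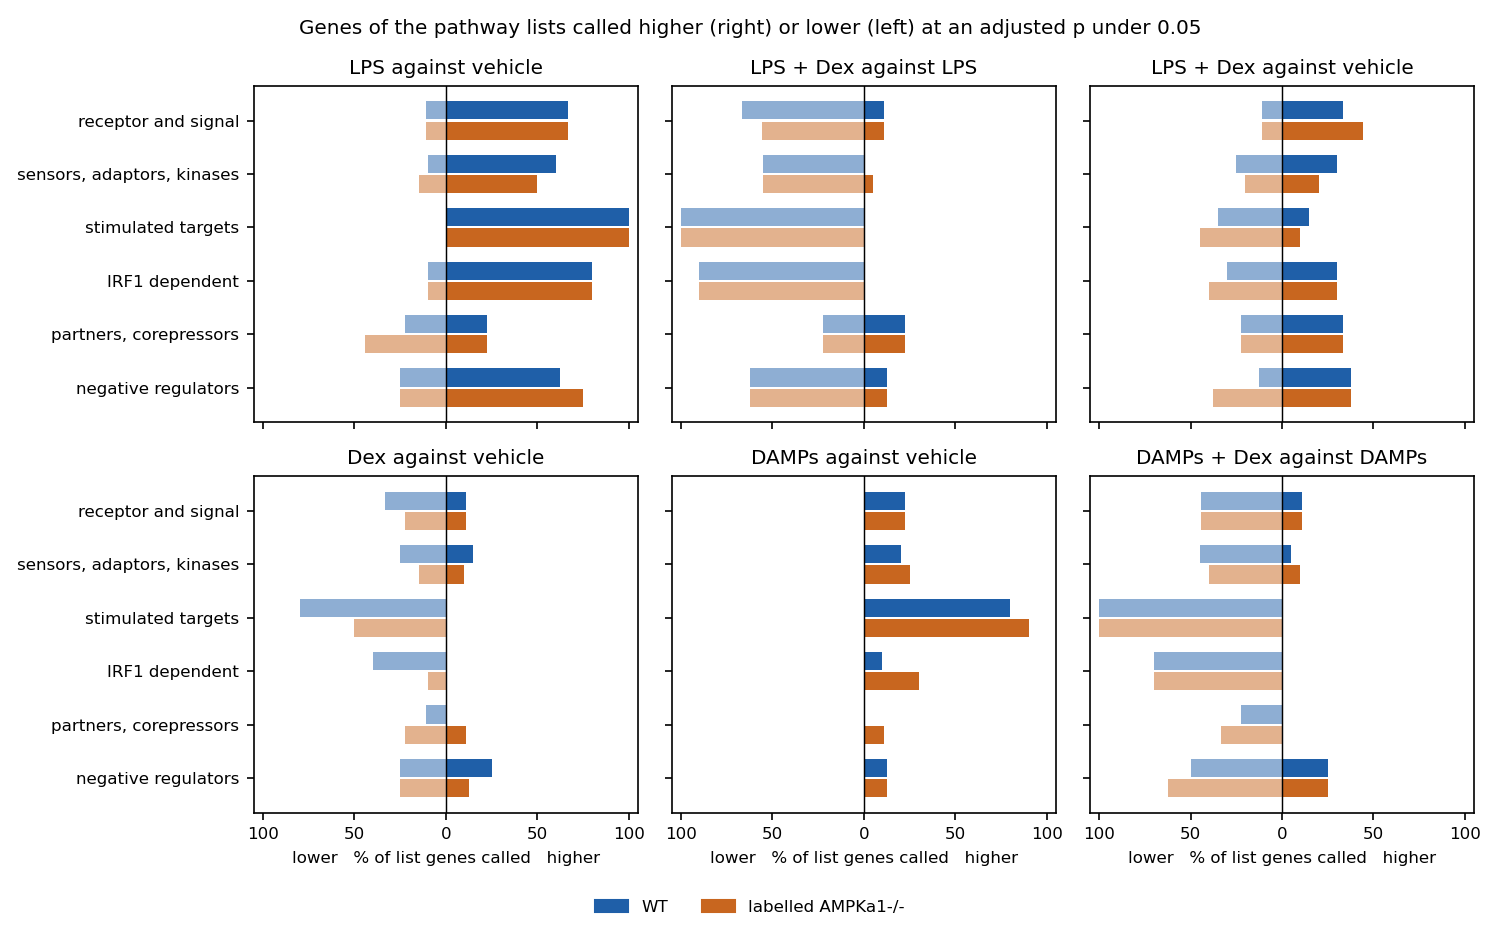
Share of the tested genes of 6 pathway lists (y axis) called higher (to the right, full colour) or lower (to the left, pale colour) in 6 comparisons (x axis, percent), with WT in blue and libraries labelled AMPKa1-/- in orange. The 20 stimulated targets all rise with LPS and all fall with LPS + Dex against LPS, while the 9 partners and corepressors are split.

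Of the 9 receptor and signal genes, 6 rose with LPS and 1 fell in each genotype, 7 of 9 called against 55.7% and 64.3% of all genes. Jak2, a Janus kinase, went from 8.1 ± 0.975 FPKM in WT vehicle to 138 ± 19.2 FPKM with LPS. Ifngr1, the ligand-binding chain of the receptor for interferon gamma, was the 1 that fell, from 323 ± 39.7 to 54.9 ± 3.26 FPKM, and Dex raised it to 1290 ± 51.4 FPKM, a pattern like that of Irf2. From LPS to LPS + Dex, 6 fell and 1 rose in WT. With DAMPs, Stat2, a subunit of the complex with IRF9, was higher by 0.91 ± 0.23 (adjusted p = 0.034) in WT and by 1.00 ± 0.23 (adjusted p = 0.0086) in the libraries labelled AMPKa1-/-. The WT call was lost without WT DAMPs replicate 3 or any 1 WT vehicle library.

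Of the 20 sensors, adaptors and kinases upstream of IRF3 and IRF7 that were matched, 12 rose and 2 fell with LPS in WT, and 10 rose and 3 fell in the libraries labelled AMPKa1-/-. That is 14 and 13 of 20 called, against 55.7% and 64.3% of all genes, so the share in the latter is near the background. The 2 that fell in WT were 1 without WT vehicle replicate 1 or WT LPS replicate 3. The sensors Zbp1, Dhx58 and Ddx58, of Z-form nucleic acid and of RNA, rose by 4.69 ± 0.39, 3.37 ± 0.29 and 2.97 ± 0.27 in WT. From LPS to LPS + Dex, 11 fell and 0 rose in WT, and the 1 that rose in the other genotype stood against 11 that fell. The WT count of 11 was 7 without WT LPS replicate 2, and the 1 that rose became 2 without LPS + Dex replicate 3 labelled AMPKa1-/-. With DAMPs, 4 rose in WT and 5 in the libraries labelled AMPKa1-/-, against 1.22% and 1.89% of all genes, and Zbp1 led with 1.72 ± 0.35 (adjusted p = 0.0079) and 2.18 ± 0.35 (adjusted p = 3.8e-04). The WT count of 4 was 0 without WT DAMPs replicate 3, Zbp1 included, and 2 without WT vehicle replicate 1. The count of 5 was 3 without vehicle replicate 3 or DAMPs replicate 2 or 3 of that genotype. With Dex alone, 3 rose and 5 fell in WT, and 2 rose and 3 fell in the libraries labelled AMPKa1-/-, against 30.9% and 27.9% of all genes called. Tlr7, a receptor for single-stranded RNA, rose by 1.52 ± 0.21 in WT (adjusted p = 2.4e-06), while Tlr9, a receptor for DNA, and Dhx58 fell by -0.82 ± 0.28 (adjusted p = 0.025) and -0.75 ± 0.26 (adjusted p = 0.028). The 5 that fell were 3 without WT vehicle replicate 2 or 3 or WT Dex replicate 2, and 2 without WT Dex replicate 1. In the other genotype, the 2 that rose became 1 without vehicle replicate 1 or 3 or any 1 Dex library, and the 3 that fell became 5 without Dex replicate 3.

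Of the 10 genes described as IRF1 dependent, 8 rose and 1 fell with LPS in both genotypes, 9 of 10 called against 55.7% and 64.3% of all genes, although Irf1 itself was not called. The 1 that fell became 2 in the libraries labelled AMPKa1-/- without their LPS replicate 3. Il12b, a subunit of interleukin 12, went from 0.0609 ± 0.0837 to 760 ± 391 FPKM in WT, and Nos2, the inducible nitric oxide synthase, from 0.029 ± 0.0266 to 84.7 ± 69.3 FPKM. From LPS to LPS + Dex, 9 of 10 fell in both genotypes, Il12b by -7.49 ± 0.27 in WT (adjusted p = 2.6e-18). With Dex alone, 4 of the 10 fell in WT and 1 in the libraries labelled AMPKa1-/-, against 14.9% and 16% of all genes, and none rose. Ciita, the master regulator of MHC class II genes, was 6.18 ± 2.04 FPKM in WT vehicle and 0.133 ± 0.034 FPKM in WT Dex, a fall of -2.62 ± 0.20 (adjusted p = 5.2e-11).

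Of the 9 partners and corepressors, Batf and Batf2, which pair with IRFs on composite sites, rose with LPS by 4.16 ± 0.19 and 2.61 ± 0.30 in WT. Over the 9 partners, 2 rose and 2 fell with LPS in WT, and 2 rose and 4 fell in the libraries labelled AMPKa1-/-. These shares, 4 and 6 of 9, are near the 55.7% and 64.3% of all genes called, and the 4 that fell were 2 without vehicle replicate 3 of that genotype. Of the 8 negative regulators, 5 rose and 2 fell with LPS in WT and 6 rose and 2 fell in the libraries labelled AMPKa1-/-, against the same backgrounds. The 2 that fell in WT were 1 without WT LPS replicate 3. Socs1, an inhibitor of Janus kinases, went from 0.193 ± 0.0136 to 142 ± 8.03 FPKM with LPS and to 22.9 ± 10.1 FPKM with LPS + Dex in WT. With Dex alone, 2 of the 8 rose and 2 fell in WT, and 1 rose and 2 fell in the libraries labelled AMPKa1-/-, against 30.9% and 27.9% of all genes called. Pias1, an inhibitor of interferon signalling, rose from 18.9 ± 2.32 to 48 ± 3.33 FPKM in WT (adjusted p = 5.3e-06), and Ptpn6, a phosphatase, fell from 438 ± 36.3 to 221 ± 25.8 FPKM (adjusted p = 1.5e-06). The 2 that fell became 1 without any 1 WT vehicle library or WT Dex replicate 2 or 3, and, in the other genotype, without vehicle replicate 2 or Dex replicate 2.

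Across the 6 treatments, the libraries labelled AMPKa1-/- were lower than WT in Irf8 by -0.24 ± 0.07 (adjusted p = 0.014) and in Irf9 by -0.19 ± 0.06 (adjusted p = 0.024), 2 of 7 genes, where 21.4% of all genes were called. With the libraries centred on 1 median, neither passed (-0.18, adjusted p = 0.064, and -0.14, adjusted p = 0.098). The 2 genotypes overlapped in Irf8 with vehicle, LPS and DAMPs + Dex, and in Irf9 with vehicle, LPS, LPS + Dex and DAMPs. The call for Irf8 was lost without WT LPS replicate 3 (-0.17, adjusted p = 0.05), and that for Irf9 without WT LPS replicate 2 (-0.16, adjusted p = 0.074).

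No difference between the genotypes in the response to LPS passed an adjusted p of 0.05 by limma in the 7 genes, nor in LPS + Dex against LPS, and every interval held 0. Across all genes 0% were called in both tests, with 514 and 311 genes at an unadjusted p under 0.05. For Irf7 the difference in the LPS response was 0.52, with an interval of -0.93 to 1.96, and for Irf2 it was -0.39, with an interval of -0.84 to 0.07. For LPS + Dex against LPS the differences were -0.76 (interval -2.20 to 0.69) and 0.42 (interval -0.03 to 0.88).

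Markers of other cells were read beside these results. The 8 dendritic cell markers summed to 0.612 ± 0.244 FPKM in WT vehicle, 75.3 ± 51.7 FPKM in WT LPS and 1.34 ± 0.354 FPKM in WT LPS + Dex. The highest sum, 111.9 FPKM in a WT LPS library, was nearly all Ccr7 (at most 109.9 FPKM), which macrophages also switch on. Cd209a was at 0 in every library. The 8 neutrophil markers summed to 5.26 to 19.4 FPKM in WT vehicle, 113.9 to 134.0 FPKM in WT LPS and 34.3 to 52.9 FPKM in WT LPS + Dex. They were led by Mmp8 and Camp, with Ly6g, Mpo and Elane at means of at most 0.0489 FPKM. In the libraries labelled AMPKa1-/- the sum was 25.7 to 39.1 FPKM with vehicle and 60.6 to 80.5 FPKM with Dex, above the 18.4 to 32.2 FPKM of WT Dex, and neither treatment overlapped between the genotypes. It was 22.7 to 43.1 FPKM with DAMPs and 62.3 to 121.9 FPKM with DAMPs + Dex in the same genotype, and 7.58 to 16.0 FPKM and 23.0 to 41.4 FPKM in WT. Among the 5 T cell markers only Cd4 reached 1 FPKM, and their sum was 16.5 ± 1.34 FPKM in WT vehicle, 1.01 ± 0.34 FPKM in WT LPS and 28.9 ± 6.13 FPKM in WT DAMPs. The 5 fibroblast markers, led by Col1a2, summed to 8.7 ± 7.19 FPKM in WT vehicle and 1.58 ± 0.719 FPKM in vehicle labelled AMPKa1-/-. The B cell markers stayed at or below 3.19 FPKM and the NK cell markers at or below 0.329 FPKM in sum, against 15410.5 to 40583.8 FPKM for the macrophage markers. The part of other cells in the changes of the IRF genes was not tested.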

How the data were processed

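RNA-seq was performed on 35 BMDM libraries. The authors deposited FPKM per Ensembl gene for each library, and the submitters' processing notes name Bowtie2 2.2.3, TopHat2 2.0.12, HTSeq 0.6.1, DESeq2 and the builds GRCm38 and mm10, without their roles. Whether reads were counted by strand is not given in the sources used here.

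Totals, recovered from the FPKM steps of 1 fragment, were 15837203 to 31955298 fragments per library (median 19973568), and 94.7% to 96.0% of values under 10 fragments came out whole within 0.01. Replicates correlated at 0.987 to 0.997. The labels do not say whether libraries came from separate mice, and the study's methods describe N as cultures of individual mice. If they did not, p-values measure only technical spread.

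Symbols and positions came from GENCODE M21 (GRCm38). limma 3.58.1 in R 4.3.3 (trend, 2-sided) was fitted to log2(FPKM + 1) over 12 groups, and p-values were Benjamini-Hochberg adjusted over the 11354 genes whose mean reached 1 FPKM. Fold changes understate those of low genes. The scripts were tested on simulated data. There were 15 planned comparisons and 2 added after the values were seen. Tables and figures used Python 3.11.15.

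The genes named are the 9 members, up to 3 genes per list and comparison with the largest called change and no overlap, and the 3 genes most like each tested member by Pearson r over 12 group means. Prkaa1, Tsc22d3, the other interferon genes and the cell markers came from listed checks. Saa3, Tnpo3 and the markers named among those listed were picked after their values were seen. Members and lists were chosen with earlier results of these data known. Same-numbered libraries labelled AMPKa1-/- deviated together in 15 of 18 pairs (r from -0.49 to 0.45), every pair in the LPS, LPS + Dex, Dex and vehicle comparisons, and there the numbers met the criterion for pairs. The values given are from the fit without the block, which was run as an alternative. What a number marks is not given in the sources used here. Values of 1 listed gene are not reported here.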

Additional observations from a re-analysis of the deposited data

How the results depend on the processing

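The fit was repeated with a pseudocount of 0.1, without the filter on low genes, with a higher minimum, with libraries centred on 1 median, with fewer libraries, with the replicate number as a block and with each library left out in turn. Without either WT LPS replicate, that group holds 1 library. The spread then comes from the other groups, so calls from these fits carry no spread of WT LPS itself. Of 5542 log2 fold changes of the IRF genes under these settings, 5443 kept their side of the threshold, 79 lost it, 20 gained it, and no called value reversed. Among those not called, 71 changed sign. Of the 5542 values, 4760 came from leaving out single libraries, and many of these fits dropped a library of neither compared group. Such a fit cannot move the fold change and shifts only the shared spread, so the total says little about stability.

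Called genes of the 7 became 1 for DAMPs against vehicle in WT with fewer libraries in the fit, 1 for Dex against vehicle in the libraries labelled AMPKa1-/- with centring, and 0 for the libraries labelled AMPKa1-/- against WT with centring. Leaving out single libraries gave 1 to 2, 1 to 2 and 1 to 3 in these comparisons. The causes were not tested. With the replicate block, Irf1 passed for LPS against vehicle in WT (0.46, adjusted p = 0.022), for the libraries labelled AMPKa1-/- against WT (-0.17, adjusted p = 0.042) and for the added Dex comparison in WT (-0.68, adjusted p = 0.02), and Irf4 without the filter for that comparison in the libraries labelled AMPKa1-/- (0.32, adjusted p = 0.035). The block changed no other call of these genes. Same-numbered WT libraries deviated together in 8 of 16 pairs (r from -0.31 to 0.47), which does not settle whether WT numbers mark pairs. The 0 genes called for the genotype difference became 118 for LPS and 75 for LPS + Dex against LPS without the filter. WT LPS rests on 2 libraries and Ifnb1 on 39 fragments, so both are imprecise.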
